A study of Mus musculus with 12 samples.

Results

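The 8 genes described here write and erase DNA methylation: the methyltransferases Dnmt1, Dnmt3a and Dnmt3b, the Dnmt1 partner Uhrf1, the dioxygenases Tet1, Tet2 and Tet3, and the DNA glycosylase Tdg. They were chosen by symbol, as 8 of the 25124 genes listed in each of 2 expression tables, and all 8 were listed in both. The data were poly(A) RNA-seq of whole retinas from wild type C57BL/6J mice, 12 libraries in 6 groups of 2. 4 groups came from eyes at 3 months (3mo) or 18 months (18mo) of age, either 2 days after intraocular pressure (IOP) had been raised to 30 mmHg for 1 h (3mo IOP, 18mo IOP) or from untreated contralateral eyes (3mo control, 18mo control). The other two groups were retinas 2 days after the last of 4 such elevations given every 2 weeks from the age of 3 months (4xIOP) and their untreated contralateral retinas (4xIOP control). A contralateral eye shares its animal with a treated eye, and the labels do not say which eyes came from the same animal, so the p-values below measure only the spread between these libraries. The study asked how mild pressure stress acts on young and aged retina and whether repeating it moves the retina, DNA methylation included, toward an older state, and the expression of these genes is examined here.

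DNA methylation in mammals sits mostly on cytosines that are followed by guanine (CpG). Dnmt3a and Dnmt3b place new methyl groups, Dnmt1 copies the pattern onto the new strand after DNA replication, and Uhrf1 recognises the half-methylated sites and brings Dnmt1 to them. Tet1, Tet2 and Tet3 oxidise methylated cytosine, Tdg cuts out the further oxidised bases, and base excision repair then puts back an unmodified cytosine. In neurons, which do not divide, Dnmt3a and the Tet enzymes are known to stay active after development, whereas Uhrf1 is best known from dividing cells.

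The transcripts lay on 7 chromosomes of mm10. Dnmt1 was listed at chr9:20907206-20959888 on the minus strand, Dnmt3a at chr12:3807160-3914443 on the plus strand and Dnmt3b at chr2:153649449-153687730 on the plus strand. Uhrf1 was listed at chr17:56304313-56323486 on the plus strand. The Tet genes were all on the minus strand, Tet1 at chr10:62804570-62887324, Tet2 at chr3:133463677-133544390 and Tet3 at chr6:83362374-83441678, and Tdg was at chr10:82629838-82650799 on the plus strand. Every value is summed over the exons of 1 listed transcript, coding and untranslated parts together, and those transcripts were long, from 3407 bases for Uhrf1 to 14339 bases for Tet1. The same transcript was listed in both tables for 5 of the 8 genes. Dnmt1, Dnmt3a and Tdg were represented by different isoforms, so their levels cannot be set side by side across the single-elevation and the repeated-elevation tables, which were normalized separately in any case. Dnmt3b has an antisense neighbour, Dnmt3bos, in the annotation, and reads were counted by strand. The tables list a further gene, Gm9855, at chr10:82629842-82650277 on the same strand as Tdg, and the values of Tdg are uncertain to the extent that reads are shared with it.

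The promoters of Uhrf1 and Dnmt3b are shown because these 2 genes were higher in every IOP group than in its control, as described below. That order was shared by 10.8% of the 13059 genes tested in both tables. Both sequences are the 250 bases before the start site of the listed transcript, taken from RefSeq on GRCm38.p6 (the assembly that mm10 names), with each CpG in capitals.
Uhrf1, chr17:56304063-56304312, plus strand: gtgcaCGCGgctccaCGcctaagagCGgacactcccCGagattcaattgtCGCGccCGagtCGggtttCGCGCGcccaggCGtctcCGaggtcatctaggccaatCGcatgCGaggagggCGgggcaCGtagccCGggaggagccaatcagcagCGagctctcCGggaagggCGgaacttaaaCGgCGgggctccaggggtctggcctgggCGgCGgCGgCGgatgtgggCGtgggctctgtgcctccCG
Dnmt3b, chr2:153649199-153649448, plus strand: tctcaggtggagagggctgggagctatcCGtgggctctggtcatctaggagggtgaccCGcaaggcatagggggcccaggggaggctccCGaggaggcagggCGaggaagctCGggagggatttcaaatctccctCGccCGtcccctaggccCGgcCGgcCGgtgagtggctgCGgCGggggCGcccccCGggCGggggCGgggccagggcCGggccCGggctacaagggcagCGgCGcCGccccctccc
The Uhrf1 window held 30 CpG and the Dnmt3b window 21, against a median of 6 over the 32817 RefSeq windows of the same length. All 8 members were matched to a window, and their counts for the transcripts of the single-elevation table ran from 2 CpG upstream of Dnmt1 to 51 upstream of Tet2. The letters of an E2F type site were searched as TTTCCCGC, TTTGGCGC, TTTCGCGC and TTTGCCGC on both strands, and a match may overlap one to CCAAT. One match, TTTCGCGC, began 185 bases before the Uhrf1 start, and no match was found in the windows of the other 7 members, while 1.86% of all windows held at least 1. The Uhrf1 window also held 2 matches to CCAAT, a sequence bound by the factor NF-Y, which 33.8% of all windows contain. These matches are letters in a window, not sites shown to be bound.

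The tables give no tag totals or reads, so depth was inferred from the steps of low FPKM values, 1 read being the smallest step, and every read count below is such an estimate. It came to between 39765752 and 59454611 tags in the 12 libraries, of which 44.2% to 71.5% were in exons. FPKM are fragments per kilobase of the listed transcript scaled to the tags of the library, which allows for length only as far as reads cover transcripts evenly. Markers of Muller glia, the radial glia of the retina, summed to 928 to 4819 FPKM over the libraries, with none of the 10 at 0. The libraries differed in how they represented long transcripts. The ratio of the median FPKM of short transcripts (under 1000 bases) to that of long ones (4000 bases or more) stood at 3.08 and 9.46 in the 3mo controls and at 7.18 and 5.58 in the 3mo IOP libraries, against 1.56 to 1.98 in the 18mo libraries and 1.98 to 2.96 in the repeated series. Marker genes of other cells also moved. Markers of the retinal pigment epithelium summed to 234 and 221 FPKM in the 3mo controls and to 13.3 and 3.51 FPKM in the 18mo controls, and 10 of the 12 were lower and 1 higher without overlap, where 32.8% of all tested genes were lower and 45.7% higher. After IOP at 3 months they summed to 725 and 314 FPKM but did not move as a whole. Without overlap, 7 of the 12 were higher and 0 lower, against 28.6% and 3.95% of all tested genes, and the melanosome gene Mlana (log2 fold change 3.59, adjusted p = 0.0325, limma) was the 1 called of 10 tested. The other 5, genes of retinoid handling and transthyretin, overlapped between the groups with log2 fold changes of -0.70 to -0.05, none of them called. They summed to 31.0 and 41.4 FPKM in the 4xIOP controls against 3.945 and 7.99 FPKM after 4 elevations, where 10 of 12 were lower without overlap against 12.7% of all tested genes. Markers of retinal ganglion cells were lower without overlap in 9 of 10 in both age comparisons, against 32.8% (controls) and 34.5% (IOP) of all tested genes, with sums of 354 and 665 FPKM in the 3mo and 59.4 and 113.5 FPKM in the 18mo controls. Microglia and leukocyte markers were called higher in 9 of 15 and those of Muller glia in 6 of 10 with age in the controls (11.6% of all tested genes), and the former also in 14 of 15 after 4 elevations (5.45% of all tested genes). Of the 12 lens markers 11 were higher without overlap after 4 elevations, against 27.7% of all tested genes. The part of these shifts in the results below was not tested.

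The members spanned a wide range of levels, which are ranked here in FPKM although short and long transcripts were not equally represented in every library. In 18mo control retinas Tet3 was highest at 15.8 ± 0.585 FPKM (SD, n = 2), followed by Dnmt3a at 13.3 ± 0.723 FPKM, Dnmt1 at 10.3 ± 1.28 FPKM and Tet2 at 7.40 ± 0.122 FPKM, none of which overlapped its neighbour in this order. Tdg followed at 4.28 ± 0.0113 FPKM. Dnmt3b and Tet1 overlapped each other, at 1.05 ± 0.0707 and 1.04 ± 0.203 FPKM, and Uhrf1 was last at 0.0740 ± 0.0283 FPKM. In the 3mo controls the order was Dnmt3a, Tet3, Tet2 and Dnmt1, with overlap between each and the next, and then Tdg, Tet1, Dnmt3b and Uhrf1 without overlap. In the 4xIOP controls Dnmt1 and Dnmt3a led, at 10.3 ± 1.201 and 9.80 ± 0.371 FPKM with overlapping libraries, ahead of Tet2, Tet3, Tdg, Tet1, Dnmt3b and Uhrf1, each without overlap with the next. Over the 8 single-elevation libraries Tet3 stood at the 77.0th percentile of the 20302 genes above 0 and Dnmt3a at the 75.8th, whereas Dnmt3b stood at the 39.9th and Uhrf1 at the 21.0th. Uhrf2, the close relative of Uhrf1, was expressed at 7.995 to 11.9 FPKM in every library, and Dnmt3l, a partner of the new-methylation enzymes without activity of its own, reached at most 0.104 FPKM.

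**Figure D1:**
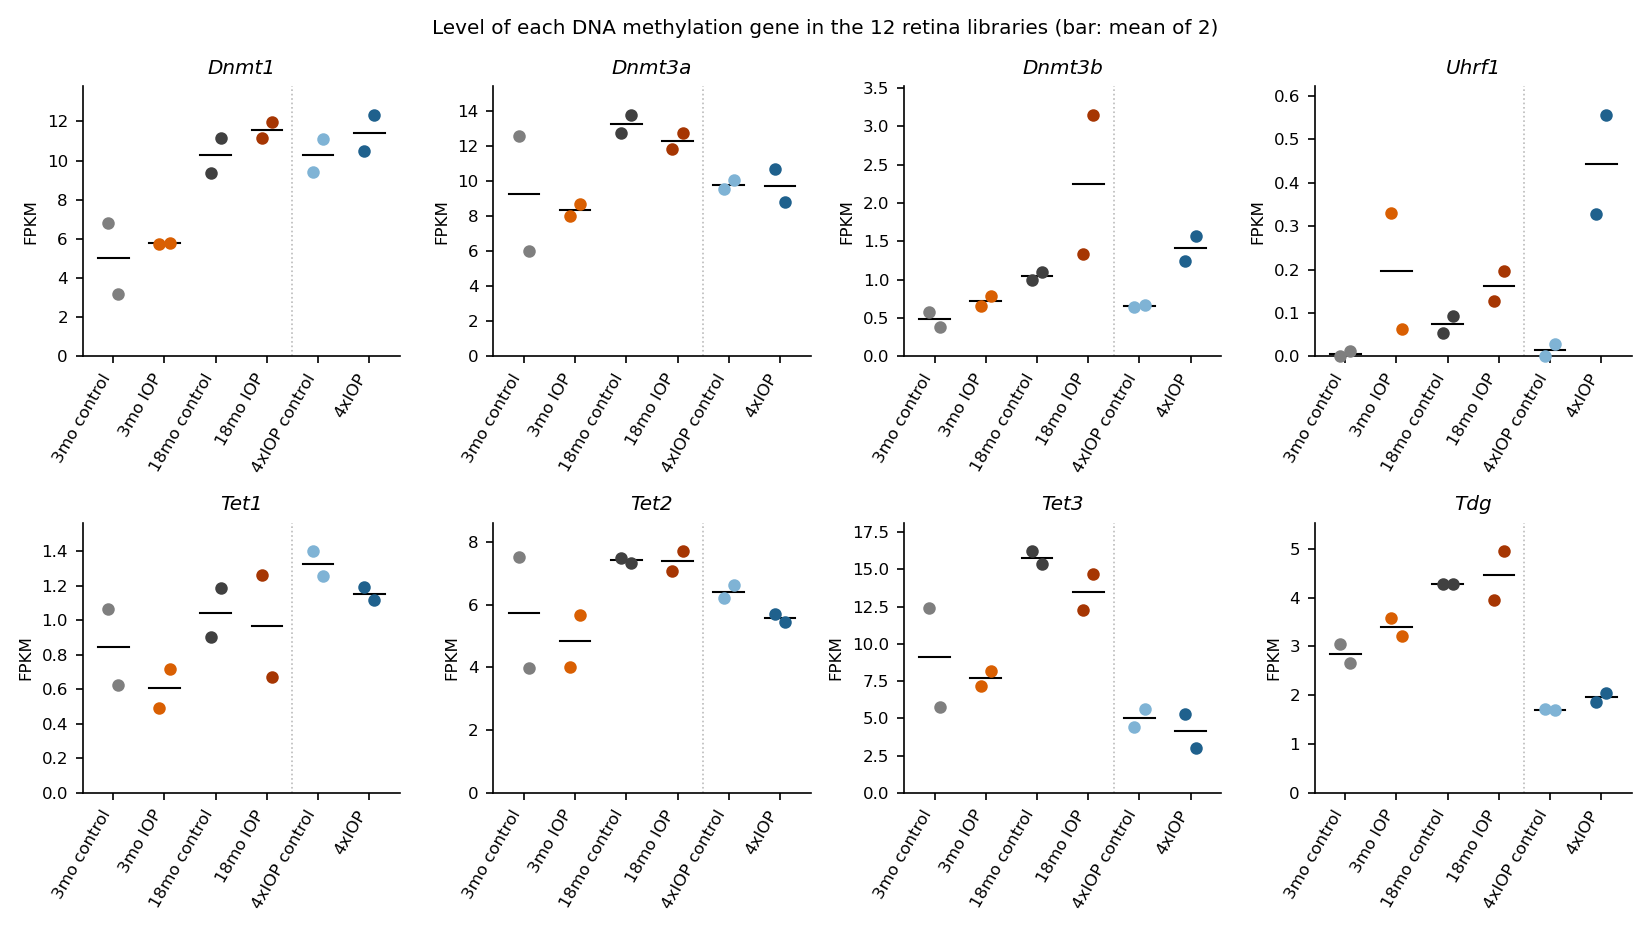
Level of each member in FPKM (linear axes from 0, a scale of its own per gene) in the 12 libraries, with points for single libraries and a bar for the mean of 2. The dotted line parts the single-elevation from the repeated-elevation table, which were normalized separately. Dnmt3b and Uhrf1 are higher in both IOP libraries than in both controls in each of the 3 pairs of groups, and the 3mo controls lie far apart for the long transcripts. Of the 13059 genes tested in both tables, 10.8% show the same order in all 3 pairs.

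Differences were tested with limma on log2(FPKM + 0.5) over every gene whose mean reached 0.5 FPKM, 13731 in the single-elevation and 13718 in the repeated-elevation table. A call required both a Benjamini-Hochberg adjusted p no larger than 0.05 and a log2 fold change of 1 or more in either direction. Of the 8 members 7 passed the filter on low values in both tables, and Uhrf1 passed in neither. Counts of members or markers without overlap also take in genes that failed the filter, whereas the shares of all tested genes do not. Fold changes on this scale understate changes of low genes such as Dnmt3b and Tet1. In these whole retinas a change in the number of cells that carry a transcript and a change in transcript per cell cannot be told apart.

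The first comparison asked how the members differed between untreated retinas of 18 and 3 months. Dnmt1, the maintenance methyltransferase, was the 1 member of 7 called, with 10.3 ± 1.28 FPKM at 18 months against 5.004 ± 2.55 FPKM at 3 months (n = 2 each). Its values were 6.81 and 3.20 FPKM in the 3mo controls and 9.36 and 11.2 FPKM in the 18mo controls. Both old libraries lay above both young ones, although the young ones differed more than 2-fold from each other. Dnmt1 was higher by 1.04 ± 0.29 (log2 fold change ± standard error, limma adjusted p = 0.0224), an interval of 0.37 to 1.72 at 95%. Among all tested genes 11.6% were called higher and 11.6% lower with age, so a single call among 7 members lies near that background. The 3185 calls over all genes became 4720 or 1520 without the first or the second 3mo control, and 1713 or 1171 without the first or the second 18mo control. With median-of-ratios scaling 1056 genes were called higher and 1959 lower in place of 1595 and 1590, the median over all genes moved from 0.16 to 0.01, and Dnmt1 was at 0.89 and not called.

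The writers of new methylation were not called with age. Dnmt3a measured 12.6 and 6.01 FPKM in the 3mo controls and 12.8 and 13.8 FPKM in the 18mo controls, so that the first young library was all but level with the old ones. Its difference was 0.58 ± 0.29 (adjusted p = 0.138, limma). Dnmt3b measured 0.581 and 0.383 FPKM at 3 months and 0.996 and 1.10 FPKM at 18 months, a ratio of the means of 2.17 with a log2 fold change of 0.66 ± 0.32 (adjusted p = 0.122, limma). Uhrf1 was close to absent from young controls, with 0 and 2 reads, and gave 8 and 15 reads in the old controls. That is 11.3 times as many reads per tag (2.80 to 99.1, exact 95% interval for counting error only).

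Of the erasers, Tet3 had the largest log2 fold change. It measured 12.4 and 5.77 FPKM in the 3mo controls and 16.2 and 15.4 FPKM in the 18mo controls, without overlap, and its log2 fold change was 0.85 ± 0.31 (adjusted p = 0.0514, limma). Tdg, which acts after the Tet enzymes, measured 3.04 and 2.66 against 4.29 and 4.27 FPKM, with adjusted p = 0.0478 (limma) but a log2 fold change of 0.52, under the threshold of size. Tet1 and Tet2 overlapped between the ages. Tet1 gave 1.07 and 0.628 FPKM at 3 months and 0.901 and 1.19 FPKM at 18 months. Tet2 gave 7.52 and 3.96 FPKM against 7.49 and 7.32 FPKM. In total, 6 of the 8 members were higher at 18 months without overlap and none lower, Uhrf1 being counted among the 6. Of all tested genes, which leave out Uhrf1, 45.7% were higher and 32.8% lower without overlap. The median of the 7 tested members was 0.58 against 0.16 over all tested genes.

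The age difference of the members changed with the treatment of transcript length. Taking out the dependence on transcript length, library by library, lowered the Dnmt1 difference from 1.04 to 0.62 (adjusted p = 0.0363, limma), and removing the trends with length and GC content together lowered it to 0.30 (adjusted p = 0.212). The same step gave -0.40 for Dnmt3a, -0.29 for Tet3 and -0.42 for Tet1, and left Dnmt3b at 0.12, Tet2 at 0.10 and Tdg at 0.35, none of them called. The call also rested on single libraries. Without the second 3mo control, whose ratio of short to long transcripts was 9.46, the Dnmt1 difference was 0.55 with 0 members called, and without the first it was 1.54 with 3 members called, Dnmt1, Dnmt3a and Tet3. Without the first or the second 18mo control it was 1.17 (adjusted p = 0.0688, limma) or 0.92 (adjusted p = 0.120, limma), with 0 members called. The Dnmt1 call held in 7 of 17 alternatives, over which the adjusted p ran from 0.000562 to 0.212 and the difference from 0.30 to 1.54.

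**Figure D2:**
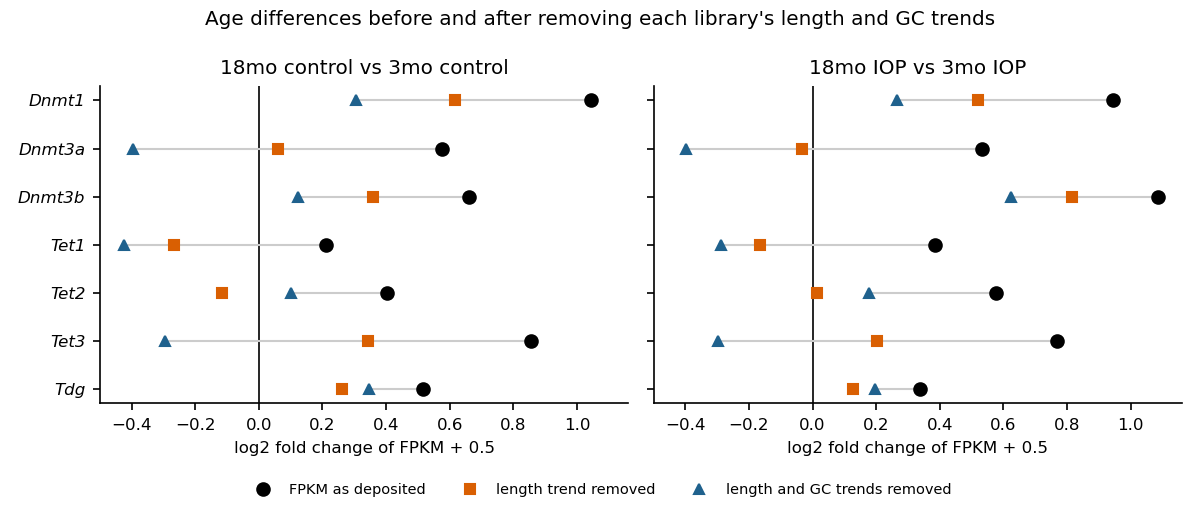
Age differences of the 7 tested members as log2 fold change of FPKM + 0.5 (18 minus 3 months), in control retinas (left) and IOP retinas (right), from the deposited FPKM (circles), after removal of each library's transcript length trend (squares) and of its length and GC trends together (triangles). All circles lie above 0, while Dnmt3a, Tet1 and Tet3 lie below 0 in both panels once both trends are removed.

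Between 18mo and 3mo IOP retinas, Dnmt3b was the 1 member called. It measured 0.659 and 0.786 FPKM in the 3mo IOP libraries and 1.34 and 3.15 FPKM in the 18mo IOP libraries. Both old libraries were above both young ones, and the second old library stood far above the first. Its log2 fold change was 1.09 ± 0.32 (adjusted p = 0.0290, limma), where 10.2% of all tested genes were called higher and 11.6% lower. Those 3000 calls became 789 or 677 without the first or the second 3mo IOP library. The call held in 8 of 16 alternatives, and without the second 18mo IOP library the difference was 0.59 (adjusted p = 0.121, limma). Without the first or the second 3mo IOP library it was 1.01 (adjusted p = 0.134, limma) or 1.16 (adjusted p = 0.0970, limma), again not called, and without the first 18mo IOP library it was 1.58 and called. Dnmt1 measured 5.73 and 5.81 FPKM at 3 months and 11.2 and 11.97 FPKM at 18 months, a narrow spread in both groups. Its difference of 0.94 ± 0.29 passed the adjusted p (0.0336, limma) but lay just under the threshold of size. Tet3 measured 7.16 and 8.20 against 12.3 and 14.7 FPKM (0.77 ± 0.31, adjusted p = 0.0747, limma). Dnmt3a, Tet1, Tet2 and Tdg differed by 0.34 to 0.58 and were not called. Here too 6 of the 8 members were higher at 18 months without overlap and none lower, the exceptions being Uhrf1 and Tet1, against 43.2% higher and 34.5% lower of all tested genes. The 2 age comparisons share no library, but the short-to-long ratio differed between the ages in both, and with length and GC trends removed the Dnmt3b difference was 0.62 (adjusted p = 0.162, limma) and that of Dnmt1 0.27.

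**Figure D3:**
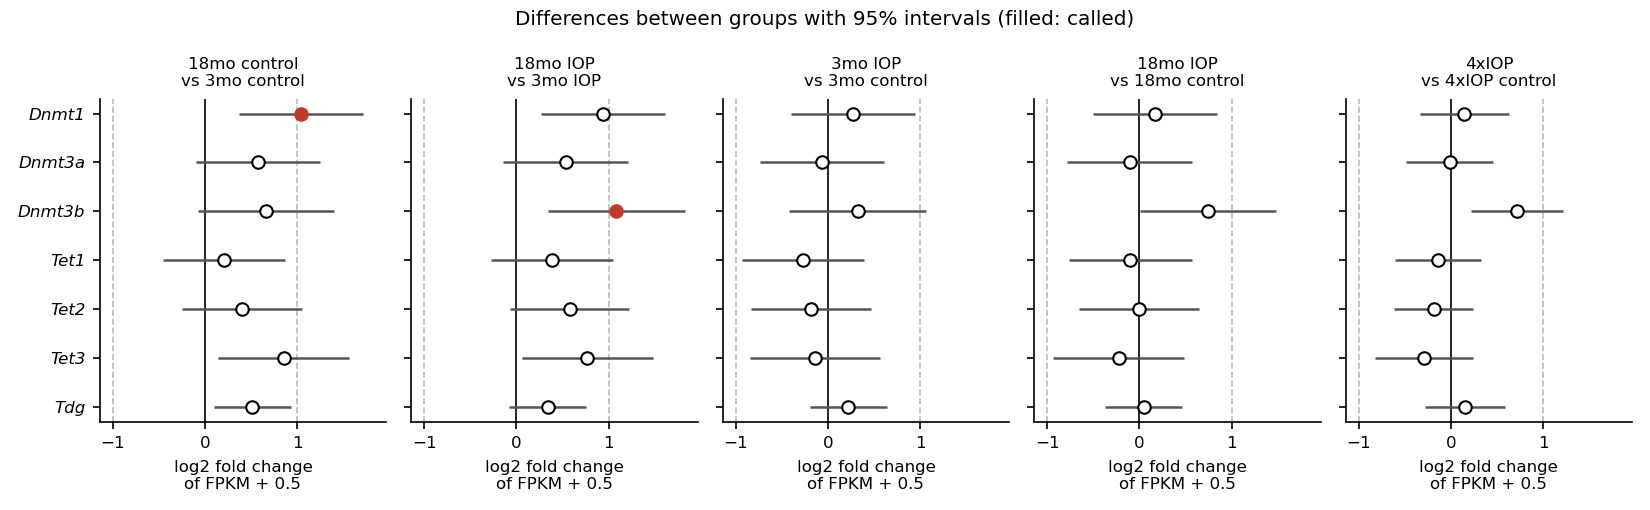
Log2 fold changes of FPKM + 0.5 for the 7 members that passed the filter, with 95% intervals from limma, in the 5 comparisons of groups. Filled points were called and dashed lines mark a log2 fold change of 1 in either direction. Dnmt1 (1.04) was called with age in control retinas and Dnmt3b (1.09) with age in IOP retinas, and no member was called in the 3 comparisons of IOP with control.

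The second question was how the members answered a single elevation of pressure. In 3mo retinas no member was called, with 0 of 7 under an unadjusted p of 0.05 in limma and 0 called with voom on the recovered reads, where 0.568% of all tested genes were called higher and 0.00728% lower. Those 79 calls became 0 or 257 without the first or the second 3mo control, and 0 or 7 without the first or the second 3mo IOP library, and 10 (all higher) with median-of-ratios scaling or 3 with voom. The members did not move together. Dnmt3b was higher in both IOP libraries, at 0.659 and 0.786 FPKM against 0.581 and 0.383 FPKM, with a log2 fold change of 0.32 ± 0.32 (adjusted p = 0.959, limma). Tdg was also higher in both, at 3.59 and 3.22 FPKM against 3.04 and 2.66 FPKM (0.22 ± 0.18, adjusted p = 0.928, limma). With Uhrf1, 3 members were higher without overlap and none was lower, where 28.6% of all tested genes were higher and 3.95% lower. For Dnmt1, Dnmt3a, Tet2 and Tet3 both IOP libraries lay between the 2 controls, and for these 4 the direction of the difference turned when 1 of the controls was left out. For Dnmt1, for instance, the difference of 0.27 became 0.76 without the first 3mo control and -0.22 without the second.

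In 18mo retinas again no member was called after a single elevation, where 0.117% of all tested genes were called higher and 0.00728% lower. Those 17 calls became 0 without either 18mo control, and 138 or 6 without the first or the second 18mo IOP library. One of the 7, Dnmt3b, had an unadjusted p under 0.05, and voom on the recovered reads called 0. Dnmt3b measured 0.996 and 1.10 FPKM in the 18mo controls and 1.34 and 3.15 FPKM after IOP, a ratio of the means of 2.15. Its log2 fold change was 0.75 ± 0.32 (95% interval 0.01 to 1.49, adjusted p = 0.518, limma), and without the second IOP library it was 0.25. Dnmt1 was higher without overlap by a margin of 0.00800 FPKM, at 11.179 and 11.967 against 9.357 and 11.171 FPKM, and its difference of 0.17 ± 0.29 was within the spread of the libraries. Tet3 was the 1 member lower without overlap, at 12.3 and 14.7 FPKM against 16.2 and 15.4 FPKM (-0.23 ± 0.31, adjusted p = 0.999, limma). With Uhrf1, 3 members were higher without overlap and 1 was lower, where 36.5% of all tested genes were higher and 9.89% lower. The intervals of the other members, Dnmt3a, Tet1, Tet2 and Tdg, all included 0 and reached no further than 0.78 in either direction.

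Whether a single elevation acted differently at the 2 ages was tested as an interaction. None of the 7 members was called, 0% of all 13731 tested genes were called by limma, and 0 of the members had an unadjusted p under 0.05. The estimates ran from -0.18 for Tdg to 0.42 for Dnmt3b (adjusted p = 1.00 for all, limma). The interval for Dnmt3b, -0.62 to 1.47, was wide enough to hold both no difference and a more than 2-fold one.

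After 4 elevations no member was called by the main test, where 5.45% of all tested genes were called higher and 0.693% lower. One of the 7, Dnmt3b, had an unadjusted p under 0.05. Dnmt3b measured 0.645 and 0.672 FPKM in the 4xIOP controls and 1.25 and 1.57 FPKM in the 4xIOP retinas. The controls were close together and both treated libraries were well above them, with a ratio of the means of 2.14. Its log2 fold change was 0.72 ± 0.23 (95% interval 0.22 to 1.21), with an unadjusted p of 0.00831 and an adjusted p of 0.0891 (limma). Over 15 alternatives the adjusted p ran from 0.0120 to 0.498 and the difference from 0.54 to 0.99, and the adjusted p passed 0.05 only with a crossed replicate block, which pairs library 1 of a group with library 2 of the other, chosen after the data had been seen. Dnmt3b was thus higher in both IOP libraries than in both controls in all 3 comparisons with IOP, which share no library. That pattern is not rare, as 10.8% of the 13059 genes tested in both tables were higher without overlap in all 3.

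None of the other 6 tested members had an unadjusted p under 0.05 after 4 elevations. Dnmt1 measured 9.42 and 11.1 FPKM in the controls and 10.5 and 12.3 FPKM after IOP (0.14 ± 0.22, adjusted p = 0.911, limma), and Dnmt3a measured 9.54 and 10.1 against 10.7 and 8.81 FPKM (-0.01 ± 0.22). The 3 Tet genes all had lower means after IOP. Tet2 measured 6.21 and 6.62 FPKM in the controls and 5.70 and 5.44 FPKM after IOP, and Tet1 1.40 and 1.26 against 1.19 and 1.119 FPKM, both without overlap. Tet3 measured 4.45 and 5.66 against 5.28 and 3.01 FPKM. None of the 3 passed the test, with log2 fold changes of -0.19 ± 0.20 for Tet2, -0.14 ± 0.22 for Tet1 and -0.29 ± 0.25 for Tet3 and adjusted p values of 0.764 to 0.908 (limma). Tdg was higher without overlap, at 1.86 and 2.05 against 1.72 and 1.70 FPKM (0.15 ± 0.20), and its overlapping gene Gm9855 moved alongside, from 2.003 and 1.91 to 2.14 and 2.34 FPKM. Altogether 3 of the 8 members were higher and 2 lower without overlap, where 27.7% of all tested genes were higher and 12.7% lower.

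Uhrf1 was the member with the largest ratio between IOP and control, at levels too low for the main test. In the 3mo retinas its reads were 0 and 2 in the controls and 61 and 9 after IOP, in the 18mo retinas 8 and 15 in the controls and 24 and 40 after IOP, and in the repeated series 0 and 4 in the controls and 63 and 80 after 4 elevations. The treated libraries lay above the controls each time. The same order in all 3 comparisons was found in 10.8% of the 13059 genes tested in both tables, a set without Uhrf1. In FPKM the highest single-elevation control was 0.0940. In the repeated series the higher control was 0.028 and the 4xIOP libraries were at 0.329 and 0.556. A library with no read allows up to 3 reads, which is 0.0212 FPKM in the 3mo and 0.0221 FPKM in the 4xIOP control. Per tag, Uhrf1 had 32.6 times the reads of its control at 3 months (exact 95% interval 8.68 to 274), 2.20 times at 18 months (1.35 to 3.72) and 29.8 times after 4 elevations (11.4 to 111). These intervals cover counting error only, and the 2 libraries of the 3mo IOP group differed by more than 5-fold.

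With no filter on low values, the 4xIOP difference of Uhrf1 reached an adjusted p of 0.0315 in limma at 0.86 ± 0.14 on the log2(FPKM + 0.5) scale, which is under the threshold of size. Voom in limma on the recovered reads of all genes, an alternative chosen after the data had been seen, called it, at an adjusted p of 0.0181 with a log2 fold change of 5.17 ± 1.01. In that limma fit the differences were 4.23 ± 1.09 at 3 months (adjusted p = 0.295) and 0.99 ± 0.89 at 18 months (adjusted p = 0.973), and neither was called. The Uhrf1 interaction of IOP with age was -3.24 ± 1.41 (adjusted p = 1.00, limma). The fitted values rest on libraries with 0 reads and depend on the prior count.

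Genes of dividing cells were examined in the same libraries. Mki67, which encodes the proliferation antigen Ki-67, measured 0.0240 and 0.0290 FPKM in the 3mo controls and 0.254 and 0.167 FPKM in the 3mo IOP libraries. In the 18mo retinas it measured 0.104 and 0.123 FPKM in the controls and 0.203 and 0.281 FPKM after IOP, and in the repeated series 0.00500 FPKM in both controls and 0.529 and 0.555 FPKM after 4 elevations. Of the 18 proliferation markers, 14 were higher without overlap after IOP at 3 months, 10 at 18 months and 12 after 4 elevations, and none was lower, where 28.6%, 36.5% and 27.7% of all tested genes were higher in this way. None of the 11, 11 and 9 that passed the filter was called. The summed level of the list mostly followed Pcna, which made up 49.4 and 87.8 FPKM of it in the 3mo controls. The sum was 74.1 and 109.9 FPKM in the 3mo and 56.8 and 53.7 FPKM in the 18mo controls against 112 and 110.4 FPKM and 55.9 and 74.4 FPKM after IOP, the latter pair overlapping its controls. In the repeated series it was 40.1 and 38.0 FPKM in the 4xIOP controls and 40.6 and 63.3 FPKM after IOP. Microglia and leukocyte markers had a summed level of 18.6 and 18.9 FPKM in the 4xIOP controls against 164 and 167 FPKM after IOP. Their sum was also higher without overlap after a single elevation, at 37.3 and 54.6 against 132 and 104.6 FPKM at 3 months and at 116 and 129 against 334 and 160 FPKM at 18 months. Of the last pair the first library was the higher, whereas Dnmt3b and Uhrf1 were both higher in the second. At 3 months the microglia and leukocyte sum and Uhrf1 were higher in the first IOP library and Dnmt3b in the second. After 4 elevations the sum and both genes were higher in the second. The order of 2 libraries does not tell which cells carried a transcript. Muller glia markers summed to 2592 and 2188 FPKM in the 18mo controls and to 4358 and 4819 FPKM after IOP, without overlap. In the repeated series they summed to 1115 and 1219 against 1404 and 1452 FPKM, without overlap, but did not move as a whole. Of the 10, 7 were higher and 2 lower without overlap, against 27.7% and 12.7% of all tested genes. The mean of Glul went from 586 to 270 FPKM and that of Clu from 133 to 380 FPKM. At 3 months the sums overlapped (928 and 1378 against 1893 and 1274 FPKM). Lens markers summed to 6.71 and 20.8 FPKM in the 18mo IOP libraries and to 3.31 and 4.78 FPKM in the 18mo controls. They summed to 14.1 and 45.7 FPKM in the 3mo IOP libraries, overlapping the 18.2 and 12.5 FPKM of the 3mo controls. In the repeated series the sums were 62.5 and 117 FPKM after IOP and 5.21 and 0.774 FPKM in the controls. The second library was the higher in each IOP group, as for Dnmt3b, whereas Uhrf1 was higher in the first at 3 months. Whether any of these cells carried the Uhrf1 or Dnmt3b transcripts was not tested.

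**Figure D4:**
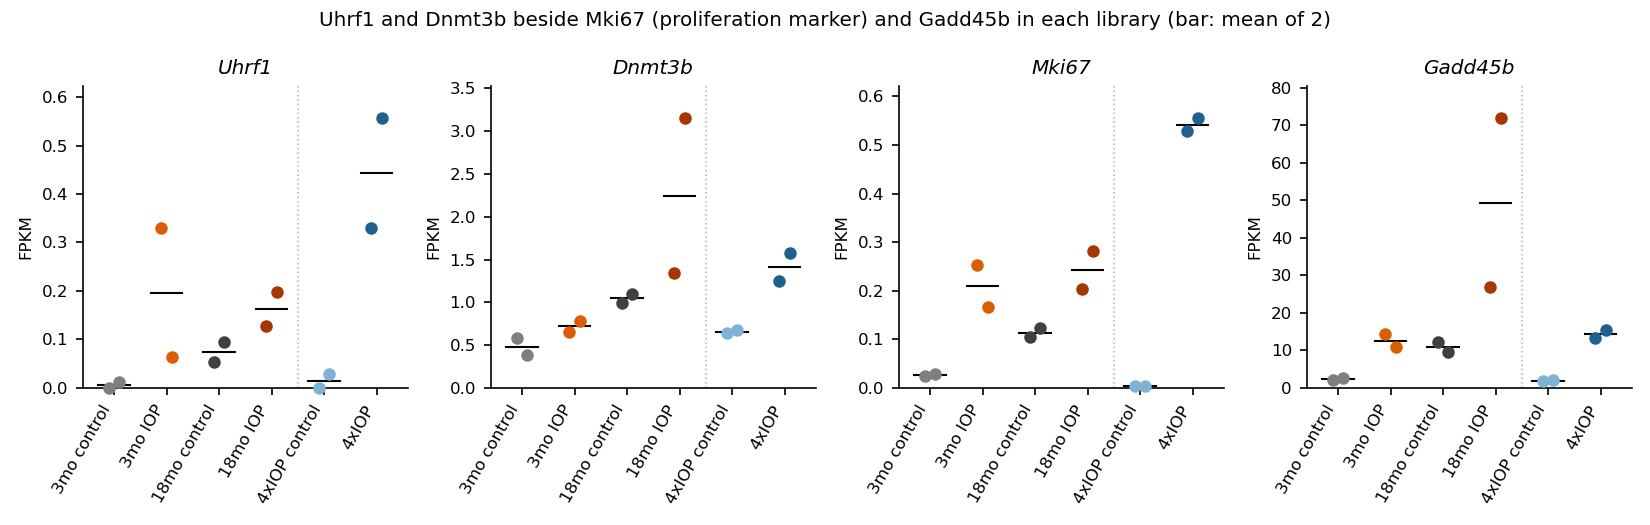
FPKM of Uhrf1 and Dnmt3b beside Mki67, a marker of dividing cells, and Gadd45b in the 12 libraries (linear axes from 0, points for single libraries, bars for the mean of 2). In each pair of groups both IOP libraries lie above both controls for all 4 genes, and the 3mo and 4xIOP controls lie at or near 0 for Uhrf1 and Mki67. Of the 13059 genes tested in both tables, 10.8% show the same order in all 3 pairs.

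The balance between the writers was also examined within single libraries, a ratio chosen after its values had been seen. Dnmt1 over Dnmt3a in FPKM was 0.541 and 0.532 in the 3mo controls, 0.716 and 0.669 in the 3mo IOP libraries, 0.733 and 0.810 in the 18mo controls and 0.945 and 0.937 in the 18mo IOP libraries. The ratio was thus higher after IOP at both ages and higher at 18 months in both treatments, each time without overlap, and the 3mo controls agreed closely although each gene alone differed about 2-fold between them. In the repeated series the ratio overlapped, at 0.988 and 1.11 in the controls and 0.982 and 1.40 after 4 elevations. Dnmt3b made up 2.91% and 3.99% of the summed FPKM of the 3 methyltransferases in the 3mo controls and 5.51% and 11.3% in the 18mo IOP libraries, with the other groups of the single-elevation table between. In the repeated series it made up 3.29% and 3.07% in the controls and 5.57% and 6.93% after 4 elevations. No test of these ratios is given, since they were chosen on the values they would be tested on. The share of other gene pairs with such a pattern was not computed. In the single-elevation table the listed transcripts were 5210 bases (Dnmt1) and 9664 bases (Dnmt3a) long. Whether their ratio followed the short-to-long ratio of the libraries was not tested. The summed FPKM of the writers over that of the Tet genes ranged from 0.925 to 1.23 in the single-elevation libraries. It ranged from 1.61 to 2.37 in the repeated series, where other isoforms of Dnmt1 and Dnmt3a were listed, so the ranges cannot be set side by side.

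Genes that work around the members were followed in 5 lists of 75 genes, of which 65 were tested in each table. With age in the controls 9 were called higher and 5 lower, where 11.6% of all tested genes were called in each direction. With age in the IOP retinas 6 were called higher and 4 lower, where 10.2% of all tested genes were called higher and 11.6% lower. After a single elevation none was called at either age, where 0.568% (3 months) and 0.117% (18 months) of all tested genes were called higher. After 4 elevations 1 was called higher, where 5.45% of all tested genes were. The lists were read against the share of all genes called that is given for each comparison.

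In the base excision repair list, 4 of 14 tested genes were called higher and 1 lower with age in the controls. Among all tested genes 11.6% were called in each direction. Gadd45b and Gadd45g, stress-induced proteins linked to active demethylation, rose by 2.01 ± 0.40 and 1.94 ± 0.34, and Apex1, the endonuclease that cuts the strand after Tdg, fell by 1.54 (adjusted p 0.00484 to 0.00848, limma). Gadd45b was also the 1 gene of all 5 lists called after 4 elevations. It measured 1.74 and 2.04 FPKM in the 4xIOP controls and 13.2 and 15.6 FPKM after IOP, a log2 fold change of 2.64 ± 0.20 (adjusted p = 2.55e-06, limma). After a single elevation Gadd45b was higher without overlap at both ages but not called, at 2.01 and 2.64 against 14.3 and 10.8 FPKM at 3 months (2.21, adjusted p = 0.0686, limma) and 12.2 and 9.62 against 27.0 and 71.9 FPKM at 18 months (1.98, adjusted p = 0.117, limma).

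Among the writer partners, 12 were tested. Ehmt2, a histone methyltransferase that binds Dnmt3a and Dnmt3b, rose by 1.14 ± 0.20 and Pcna, the replication clamp that holds Dnmt1 at the fork, fell by 1.44 with age in the controls (adjusted p 0.00652 and 0.00759, limma). Pcna fell by 1.29 with age in the IOP retinas as well. Among 13 TET partners Idh1, which makes the co-substrate of the Tet enzymes, fell by 1.31 and 1.22 in the 2 age comparisons, Idh3a fell by 1.17 and D2hgdh rose by 1.00 in the controls. After IOP neither list held a call. The smallest p-values of the TET partners belonged to Idh2 in all 3 comparisons with IOP, with differences of 0.63, 0.50 and 0.59 (adjusted p 0.422, 0.574 and 0.130, limma).

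Of the 13 methyl-CpG readers and CpG-binding proteins, 2 were called higher with age in the controls and 3 in the IOP retinas, and none lower. Among all tested genes 11.6% and 10.2% were called higher in these comparisons, and 11.6% lower in both. Mbd6 rose by 1.49 and 1.59 and Kmt2a, a histone methyltransferase that binds unmethylated CpG, by 1.37 and 1.54 (adjusted p 0.00782 to 0.0147, limma). In the list for methionine and the methyl donor SAM, Amd1 fell by 1.14 and 1.07 with age and Ahcyl2 rose by 1.01 in the controls. No gene of either list was called after 1 or 4 elevations. In the repeated series the smallest p-values of these lists belonged to Mbd1 and Mthfd1, at 0.36 and 0.61 (adjusted p 0.543 and 0.116, limma). The short-to-long ratio given above differed between the ages for these lists as for the members.

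The genes whose pattern was most like that of each member were sought by Pearson r of log2(FPKM + 0.5) over the 12 libraries, among 13059 genes tested in both tables. The points share their library, its depth and its table, and r also takes in any shift between the separately normalized tables, for Dnmt1, Dnmt3a and Tdg between isoforms too, so these values are a description without a test. Dnmt1 was most like Pdcd11 (r = 0.993) and Arhgef12 (0.985), Dnmt3a like Atf7ip (0.959) and Cblb (0.958), and Dnmt3b like Txnrd1 (0.964) and Kremen1 (0.958). Tet1 was most like Dennd5b and Dgkh (0.9498 and 0.946), Tet2 like Ubn2 and Plekhm3 (0.947 and 0.944), and Tet3 like Kmt2b and Setd1a (0.995 and 0.990). Tdg was most like its overlapping gene Gm9855 (0.999) and Stau1 (0.992).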

How the data were processed

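Retinal poly(A) RNA of 12 libraries was sequenced by the authors, aligned with STAR 2.7.8a to mm10 and counted with HOMER as unique tags in exons of 1 isoform per locus on the transcribed strand. The deposited values are FPKM, given by the authors in 2 tables, and raw reads were not used here. Groups came from the sample labels. The tables hold no tag totals. Each library's total was estimated as the one that makes FPKM times length whole reads, giving 39765752 to 59454611 tags. Of the 12605 to 15377 values per library that could be checked (above 0, under 2000 reads, tolerance under 0.25 read), at least 99.6% lay within the rounding of the FPKM (0.0005) plus 0.02 read of a whole number. Intervals and limits (3 reads for a count of 0) cover counting error only.

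FPKM plus 0.5 were taken to log2 and fitted with limma 3.58.1 (R 4.3.3, variance trend on), 1 fit per table over all its groups, on genes with a mean of 0.5 FPKM or more, and adjusted by Benjamini-Hochberg over all genes tested. The residual degrees of freedom were 4 and 2. The deposited unit being FPKM, the log-scale test was the main one, and voom on the recovered reads was an alternative. One marker list is not reported here. Named genes were all members, for each pathway list up to 2 called genes in each direction, by size of the difference, or, with none called, the 2 of smallest p, and the 2 genes most alike each member. The members and lists were chosen with earlier results of these data known. Alternatives covered the pseudocount, the filter, scaling, length and GC trends, voom on recovered reads, blocks and left-out libraries.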

Additional observations from a re-analysis of the deposited data

How the results depend on the processing

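Member fold changes under 512 alternatives other than a left-out library kept their direction and their side of the threshold in 478, were no longer called in 12, became called in 2 and reversed in 20. Unless named otherwise the cause was not tested. The count of members called with age in controls, 1 as reported, was 0 with a pseudocount of 1, median-of-ratios scaling, the length trend removed, length and GC trends removed, voom with or without the filter, or only the 2 groups compared, and 2 by adjusted p alone. It ranged from 0 to 3 over left-out libraries. In IOP retinas the count with age, 1 as reported, was 0 with a pseudocount of 1, no filter, a mean of at least 2 FPKM (where Dnmt3b was not tested), the length trend removed, both trends removed or only the 2 groups compared, 2 by adjusted p alone, and 0 to 1 over left-out libraries. After 4 elevations it was 1 (Uhrf1) with voom and no filter, and 0 otherwise.

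Reversals with median-of-ratios scaling were Tdg after a single elevation at 18 months at -0.062 and the Dnmt3a interaction at 0.027. With voom these were -0.068 and 0.028, and with voom and no filter -0.079 and 0.032. With the length trend removed, Tet1 and Tet2 were at -0.27 and -0.12 with age in controls, Dnmt3a and Tet1 at -0.033 and -0.17 with age in IOP retinas, and Tdg at -0.069 after IOP at 18 months and -0.0039 after 4 elevations. With both trends removed, Dnmt3a, Tet1 and Tet3 were at -0.40, -0.42 and -0.29 with age in controls and at -0.40, -0.29 and -0.30 in IOP retinas, and Tdg at -0.068 and -0.0090.

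Leaving out 1 library at a time, which leaves a lone library assumed to vary like the other groups, reversed 29 of 196 fold changes. The ranges of those affected were, with age in controls, -0.026 to 0.45 for Tet1 and -0.020 to 0.82 for Tet2. After IOP at 3 months they were -0.22 to 0.76 for Dnmt1, -0.57 to 0.44 for Dnmt3a, -0.60 to 0.24 for Tet2 and -0.66 to 0.38 for Tet3. After IOP at 18 months they were -0.39 to 0.20 for Tet1, -0.064 to 0.051 for Tet2 and -0.10 to 0.19 for Tdg. In the interaction they were -0.59 to 0.39 for Dnmt1, -0.55 to 0.46 for Dnmt3a, -0.07 to 0.92 for Dnmt3b, -0.12 to 0.47 for Tet1, -0.25 to 0.60 for Tet2 and -0.61 to 0.44 for Tet3. After 4 elevations they were -0.15 to 0.12 for Dnmt3a and -0.65 to 0.066 for Tet3.

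Same-numbered libraries did not deviate alike, their deviations correlating at -0.53 to -0.12. These correlations cannot tell whether same-numbered libraries came from the same animals. A replicate block left 1 member called in each age comparison and 0 in the others. It called 0 genes after IOP at 18 months in place of 17. A crossed block, chosen after the data had been seen, called 3257 and 3089 genes with age, 175 and 154 after a single elevation at 3 and 18 months, 0 in the interaction and 894 after 4 elevations, where the reported fit called 3185, 3000, 79, 17, 0 and 843. The fits with trends in both length and GC removed (1433, 1524, 46 and 0 genes called in the first 4 of these comparisons) and voom without the filter (0 at 3 and at 18 months of IOP) were also chosen after the data had been seen. Adjusted p alone called 6297 and 5846 genes with age, and a filter at 2 FPKM called 475 after 4 elevations. After IOP at 3 months 9 genes were called with no filter, 10 with median-of-ratios scaling, 3 with voom and 53 with the block. After IOP at 18 months 1 was called with no filter and 9 at 2 FPKM, and 0 with a pseudocount of 0.1, median-of-ratios scaling, voom or only the 2 groups compared. Depth limits Uhrf1 most, with at most 4 reads in each 3mo and 4xIOP control.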
